A study of Homo sapiens and Mus musculus with 18 samples.

Results

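The genes described here are 10 components of the Nodal signalling pathway, followed in human and mouse embryonic stem cells (ESCs) and in the gastruloids made from them. They were taken by name: the ligands NODAL and GDF3, the co-receptor TDGF1 (Cripto in mouse), the receptors ACVR1B and ACVR2B, the transcription factor FOXH1, the secreted antagonists LEFTY1, LEFTY2 and CER1, and the intracellular inhibitor SMAD7. All 10 were found in each species, among 44910 genes in the human count table and 29720 in the mouse table. All 10 also passed the low-count filter in each species, which kept 18300 human and 15003 mouse genes.

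Gastruloids are aggregates of ESCs that break symmetry and elongate along an anterior-posterior axis. Polyadenylated RNA was sequenced from 18 samples in 9 groups of 2 replicates. The human groups were naive and primed ESCs of the H9 line, primed ESCs of the RUES2-GLR line (RUES2_GLR in the labels), and gastruloids of RUES2-GLR made with retinoic acid (RA-gastruloids), sampled early, at 24 h, and late, at 120 h. The mouse groups, all of the E14Tg2a line, were naive ESCs, epiblast-like cells (EpiLCs, the primed state), early gastruloids and late gastruloids. Naive H9 ESCs had been chemically reset and grown in PXGL medium on mouse embryonic feeder cells, which were then removed over passages, and primed human ESCs were grown in StemFlex without feeders. The RA-gastruloids came from RUES2-GLR ESCs given CHIR99021, which activates WNT signalling, and then retinoic acid before aggregation, with retinoic acid and Matrigel added later. Mouse naive ESCs were kept in 2i and LIF, and EpiLCs in Activin A, bFGF and KSR, so the EpiLC medium itself held a ligand of the receptors described below. Mouse gastruloids were aggregated directly from naive ESCs and pulsed with CHIR99021, and were not derived from EpiLCs. Each group is a single line under a single protocol, so species, line and protocol cannot be told apart in any comparison between human and mouse.

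Nodal is a secreted TGF-beta family ligand that holds pluripotent epiblast cells in the primed state and later patterns mesoderm and endoderm during gastrulation. It binds type I and type II activin receptors together with an EGF-CFC co-receptor, which leads to phosphorylation of SMAD2 and SMAD3. These enter the nucleus and act with FOXH1 on targets that include NODAL itself and its antagonists LEFTY1 and LEFTY2, so that the pathway feeds back on itself in both directions.

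Library totals ranged from 3681739 to 38771193 counts in human and from 6487157 to 20052505 in mouse. Levels are given as CPM, the counts of a gene relative to the library total after scaling by the trimmed mean of M-values (TMM). Levels of different genes are compared only as TPM, which also divide by gene length. A gene was called when its absolute log2 fold change exceeded 1 and its p from the edgeR quasi-likelihood test, adjusted by Benjamini-Hochberg across the genes kept, was under 0.05 (the edgeR adjusted p below). Both primed RUES2-GLR libraries had 21.4% and 22.4% of their counts on mitochondrial genes, against 2.68% to 6.71% in the other human libraries, and the part of this in the results was not tested. Pluripotency markers (POU5F1 and NANOG) summed to 633 to 927 CPM in the human ESC libraries, 242 to 257 CPM in early RA-gastruloids and 0.388 to 0.612 CPM in late RA-gastruloids, where NANOG was at 0. The same markers summed to 1017 to 2082 CPM in mouse ESCs, EpiLCs and early gastruloids together and to 126 to 130 CPM in late gastruloids. Naive markers (SUSD2, KLF17 and DPPA5) summed to 3004 to 3260 CPM in naive H9 and to at most 9.24 CPM in the other human libraries, and primitive streak markers (TBXT, TBX6 and CDX2) to 736 to 774 CPM in early RA-gastruloids and 218 CPM in both early mouse gastruloid libraries. In mouse that sum was almost all T (TBXT in human) at 213 CPM, with Tbx6 at 0.373 CPM and Cdx2 at 4.80 CPM, below its 7.76 CPM in naive ESCs. These are bulk samples, in which fewer cells of a type and less RNA per cell cannot be told apart.

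NODAL was high in human naive cells alone, while mouse Nodal was high in naive ESCs, EpiLCs and early gastruloids. Human NODAL (ENSG00000156574, GRCh38 chr10:70431936-70447951, minus strand) stood at 94.8 and 96.0 CPM in the naive H9 libraries and at 4.05 and 3.22 CPM in primed H9. It was at 3.44 and 2.87 CPM in primed RUES2-GLR, 2.21 and 2.52 CPM in early RA-gastruloids, and 0.145 and 0.306 CPM in late RA-gastruloids, where each library held 3 counts. In CPM only the 2 primed ESC groups overlapped, and every other step down in this order separated the libraries fully. In TPM those 2 groups were apart, at 8.53 and 6.70 in primed H9 and 3.61 and 2.90 in primed RUES2-GLR. Early RA-gastruloids, at 4.12 and 4.73 TPM, then lay above primed RUES2-GLR. From naive to primed H9, NODAL fell by 4.77 ± 0.15 on the log2 scale (SE, n = 2 per group), a 27.2-fold decrease with an edgeR adjusted p of 1.82e-22. From primed RUES2-GLR to early RA-gastruloids the change of -0.48 ± 0.30 was not called (edgeR adjusted p = 0.169). From early to late RA-gastruloids NODAL fell again, by 3.53 ± 0.46 (edgeR adjusted p = 1.11e-07).

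Mouse Nodal (ENSMUSG00000037171, GRCm39 chr10:61253751-61261117, plus strand) was at 129 and 133 CPM in naive ESCs, 123 and 119.8 CPM in EpiLCs, 242 and 265 CPM in early gastruloids, and 21.1 and 25.0 CPM in late gastruloids. The early gastruloids were the highest group and the late gastruloids the lowest, with no overlap between neighbouring groups. Nodal rose 2.09-fold from EpiLCs to early gastruloids (log2 1.06 ± 0.06, edgeR adjusted p = 2.50e-22) and fell 11.1-fold from early to late gastruloids (log2 -3.47 ± 0.08, edgeR adjusted p = 5.28e-42). Its difference between naive ESCs and EpiLCs was -0.11 ± 0.07 and was not called. Even in late gastruloids its CPM was above that of every human group other than naive H9, on a scale that was set separately in each species. Of the human NODAL exon bases, 33.5% are also exons of a gene on the opposite strand (ENSG00000280401), where counting without strand drops reads, against none for mouse Nodal.

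GDF3, a TGF-beta family ligand related to Nodal that acts through the same co-receptor, followed a course close to that of NODAL in H9 cells but not in RUES2-GLR cells. Human GDF3 (ENSG00000184344, GRCh38 chr12:7689784-7695775, minus strand) was at 292 and 245 CPM in naive H9, 8.04 and 7.36 CPM in primed H9, while primed RUES2-GLR had 39.4 and 42.4 CPM. It then stood at 2.31 and 1.51 CPM in early RA-gastruloids and had 0 counts in both late RA-gastruloid libraries. All 5 groups were separated. GDF3 fell by 5.14 ± 0.14 from naive to primed H9 (35.2-fold, edgeR adjusted p = 1.57e-23), and was 5.31-fold higher in primed RUES2-GLR than in primed H9 (log2 2.41, edgeR adjusted p = 1.78e-14), a difference of 1.39 on the TPM scale. It fell by 4.39 ± 0.21 from primed RUES2-GLR to early RA-gastruloids (edgeR adjusted p = 1.90e-17), and its 39 counts in the early libraries against 0 in the late ones put it at least 19.5-fold lower, taking 3 counts over the group as the floor.

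Mouse Gdf3 (ENSMUSG00000030117, GRCm39 chr6:122582362-122587046, minus strand) changed less before the late stage. It was at 215 and 231 CPM in naive ESCs, 112 and 117 CPM in EpiLCs, 109.7 and 101 CPM in early gastruloids, and 8.41 and 6.40 CPM in late gastruloids. The naive libraries were highest and the late libraries lowest, and no groups overlapped. The naive to EpiLC change of -0.96 ± 0.06 stayed just under the fold threshold, and without EpiLC replicate 2 or naive replicate 1 it was past it (-1.001 and -1.014). The naive to early gastruloid change of -1.08 ± 0.06 passed it (edgeR adjusted p = 3.70e-22), and the early to late change was a 14.1-fold fall (log2 -3.81 ± 0.11, edgeR adjusted p = 9.73e-38).

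The 250 bases before the RefSeq start of the human genes are shown for both ligands, because they fell together in H9, and for CER1, the antagonist that moved the opposite way there. The sequences are from RefSeq (GRCh38.p14), where 6 of the 10 human genes had an entry, read 5′ to 3′ on the gene's strand. Capitals mark 2 motifs searched on either strand, TGTGNATT (a FOXH1-type motif) and CAGAC (a SMAD-type motif), which do not overlap each other in these windows. The first is held by 2.91% and the second by 38.0% of the 34796 promoters in the table.
NODAL, chr10:70441682-70441931, minus strand: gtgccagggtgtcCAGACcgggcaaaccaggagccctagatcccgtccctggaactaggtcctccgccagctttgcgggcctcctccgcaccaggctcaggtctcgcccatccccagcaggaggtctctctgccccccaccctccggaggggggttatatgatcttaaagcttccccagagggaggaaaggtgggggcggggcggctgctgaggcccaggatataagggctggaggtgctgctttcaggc
GDF3, chr12:7695776-7696025, minus strand: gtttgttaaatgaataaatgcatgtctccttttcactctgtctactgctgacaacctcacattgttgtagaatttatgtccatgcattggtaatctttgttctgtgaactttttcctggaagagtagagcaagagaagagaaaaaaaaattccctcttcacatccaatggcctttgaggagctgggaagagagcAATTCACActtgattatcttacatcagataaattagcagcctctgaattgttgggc
CER1, chr9:14722734-14722983, minus strand: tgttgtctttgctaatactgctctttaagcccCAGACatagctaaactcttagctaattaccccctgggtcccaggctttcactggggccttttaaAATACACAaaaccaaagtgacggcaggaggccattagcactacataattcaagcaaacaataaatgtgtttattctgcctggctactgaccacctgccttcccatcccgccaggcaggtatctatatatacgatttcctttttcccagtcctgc
The GDF3 window held the FOXH1-type motif in 1 copy, the NODAL window the SMAD-type motif in 1 copy, and the CER1 window 1 copy of each. The windows of ACVR1B, ACVR2B and SMAD7, which are not shown, held 0 copies of the FOXH1-type motif and 0 to 2 of the SMAD-type motif. A match of letters is a description of the window and not a binding site. The NODAL start in RefSeq lies inside the longer gene span of the annotation used for counting.

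TDGF1, the EGF-CFC co-receptor that Nodal and GDF3 require for receptor binding, was the most abundant of these genes in human primed ESCs and close to absent from the RA-gastruloids. TDGF1 (ENSG00000241186, GRCh38 chr3:46574534-46582457, plus strand) was at 261 and 272 CPM in naive H9, 286 and 303 CPM in primed H9, while primed RUES2-GLR had 419.7 and 414 CPM. In early RA-gastruloids it was at 2.02 and 2.42 CPM (21 and 24 counts), and both late libraries had 0 counts. The 3 ESC groups lay close together, and the RA-gastruloids far below them. In TPM primed H9, at 504 and 528, lay above primed RUES2-GLR, at 369 and 351. The fall from primed RUES2-GLR to early RA-gastruloids was 188-fold (log2 -7.55 ± 0.16, edgeR adjusted p = 2.61e-25), and from early to late RA-gastruloids TDGF1 was at least 22.5-fold lower.

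Mouse Cripto (ENSMUSG00000032494, GRCm39 chr9:110768671-110775226, minus strand) kept its level into early gastruloids. It was at 542 and 541 CPM in naive ESCs, 777 and 763 CPM in EpiLCs, 482 and 516 CPM in early gastruloids, and 32.6 and 27.1 CPM in late gastruloids. EpiLCs were highest, and the late gastruloids lay far below the other 3 groups. Its changes before the late stage were between -0.63 and 0.51 on the log2 scale and were not called, and the early to late fall was 16.6-fold (log2 -4.05 ± 0.07, edgeR adjusted p = 7.22e-49). TDGF1 has processed pseudogene copies. The coding sequence of 1 of them, TDGF1P3, matched that of TDGF1 at 557 of 564 bases, and 38.6% of the 50-base windows of the TDGF1 transcript also occurred in another gene, so reads could be split or dropped there.

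Both receptors were at 48.8 CPM or more in every human library and were called in no mouse comparison. ACVR1B (ENSG00000135503, GRCh38 chr12:51951699-51997078, plus strand), the type I receptor also called ALK4, was at 60.4 and 59.9 CPM in naive H9, 50.8 and 48.8 CPM in primed H9, while primed RUES2-GLR had 134 and 143 CPM. It was at 53.4 and 52.6 CPM in early and at 55.3 and 50.3 CPM in late RA-gastruloids, ranges that overlapped. The primed RUES2-GLR libraries had the highest CPM. ACVR1B was 2.78-fold higher in primed RUES2-GLR than in primed H9 (log2 1.47, edgeR adjusted p = 1.04e-12) and 2.60-fold lower in early RA-gastruloids than in primed RUES2-GLR (log2 -1.38 ± 0.11, edgeR adjusted p = 6.50e-12). On the TPM scale, with mitochondrial transcripts in the total, the first difference was 0.45 and the latter -0.53.

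ACVR2B (ENSG00000114739, GRCh38 chr3:38453890-38493142, plus strand), a type II receptor that phosphorylates the type I receptor, was lowest in naive H9 at 58.4 and 53.1 CPM. It was at 161 and 154 CPM in primed H9, then 202 and 183 CPM in the RUES2-GLR ESCs, 89.3 and 89.5 CPM in early RA-gastruloids, and 150.1 and 187 CPM in late RA-gastruloids. The late RA-gastruloid libraries overlapped with both primed ESC groups. ACVR2B rose 2.82-fold from naive to primed H9 (log2 1.50 ± 0.11, edgeR adjusted p = 3.80e-13) and fell by 1.11 ± 0.12 from primed RUES2-GLR to early RA-gastruloids (edgeR adjusted p = 1.22e-09), a change of -0.25 on the TPM scale. Its early to late difference of 0.91 ± 0.11 missed the fold threshold, and was called without late RA-gastruloid replicate 1 (1.06, edgeR adjusted p = 9.14e-12).

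In mouse neither receptor was called in any of the 4 comparisons. Acvr1b (ENSMUSG00000000532, GRCm39 chr15:101071948-101111565) ranged from 29.7 CPM in an EpiLC library to 52.0 CPM in a late gastruloid library, and its naive and EpiLC libraries overlapped. Acvr2b (ENSMUSG00000061393, GRCm39 chr9:119231184-119264061) ranged from 28.5 CPM in a naive library to 63.3 CPM in a late gastruloid library. Both were highest in late gastruloids, where the early to late differences were 0.32 ± 0.09 for Acvr1b and 0.76 ± 0.09 for Acvr2b.

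FOXH1, the forkhead factor that carries SMAD2 and SMAD3 to their targets, was nearly lost from late RA-gastruloids. FOXH1 (ENSG00000160973, GRCh38 chr8:144473412-144475849, minus strand) was at 93.1 and 111 CPM in naive H9, 59.6 and 62.4 CPM in primed H9, while primed RUES2-GLR had 159.7 and 181 CPM. It was at 92.1 and 96.1 CPM in early RA-gastruloids, within the range of the naive libraries, and at 0.242 and 0 CPM (5 and 0 counts) in late RA-gastruloids. FOXH1 was 2.78-fold higher in primed RUES2-GLR than in primed H9 (log2 1.47, edgeR adjusted p = 1.01e-11), a difference of 0.46 on the TPM scale. Its change of -0.85 ± 0.12 from primed RUES2-GLR to early RA-gastruloids was under the fold threshold (edgeR adjusted p = 6.02e-07), was called without primed RUES2-GLR replicate 1 (-1.03), and was 0.00284 on the TPM scale. The early to late fall was 548-fold (log2 -9.10 ± 0.27, edgeR adjusted p = 6.33e-23), a size that rests on 5 late counts and is less certain than this SE. Of its exon bases, 39.2% are also exons of KIFC2 on the opposite strand. Counting did not use strand, so reads of the 2 genes could not be told apart there and were left out of both.

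Mouse Foxh1 (ENSMUSG00000033837, GRCm39 chr15:76552425-76554148) was at 81.4 and 77.9 CPM in naive ESCs, 137 and 137 CPM in EpiLCs, 98.5 and 98.9 CPM in early gastruloids, and 52.5 and 44.7 CPM in late gastruloids. No groups overlapped. The early to late fall was 2.02-fold (log2 -1.01 ± 0.08, edgeR adjusted p = 3.93e-18), at the edge of the fold threshold, and with DESeq2 the same change was -0.97 and was not called, nor was it without late replicate 2 (-0.90).

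LEFTY1 and LEFTY2 are secreted inhibitors that bind Nodal and its co-receptor, and both are known targets of the pathway. They sit side by side on human chromosome 1 and are near copies of each other: 1067 of 1098 coding bases were identical (97.2%). Of the 50-base windows of each transcript, 54.7% for LEFTY1 and 29.6% for LEFTY2 also occurred in another gene. Reads that map to several places were left out by the authors' counting, so levels of both genes are uncertain, and more so for LEFTY1. The mouse pair is less alike, with 1014 of 1104 coding bases identical (91.8%).

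LEFTY1 (ENSG00000243709, GRCh38 chr1:225886282-225911382, minus strand) was at 20.3 and 17.5 CPM in naive H9, 26.8 and 27.1 CPM in primed H9, while primed RUES2-GLR had 18.8 and 18.8 CPM. It dropped to 0.480 and 0.202 CPM (5 and 2 counts) in early RA-gastruloids, with 1 count in each late library. In CPM the ESC groups were within a narrow band, with the naive H9 and RUES2-GLR libraries overlapping. Mean TPM spread further, at 30.7 in naive H9, 62.2 in primed H9 and 21.4 in primed RUES2-GLR. The RA-gastruloids were near the detection limit. LEFTY1 fell by 5.74 ± 0.32 from primed RUES2-GLR to early RA-gastruloids (53.4-fold, edgeR adjusted p = 4.94e-16). The early to late decrease passed the threshold (edgeR adjusted p = 0.0418), but the 7 and 2 counts behind it gave a 5.24-fold ratio with a 95% counting interval of 0.998 to 51.7, which covers counting error only. The call was lost with DESeq2 (adjusted p = 0.0808), without the low-count filter (edgeR adjusted p = 0.143), and without early replicate 1, late replicate 1 or late replicate 2 (edgeR adjusted p = 0.415, 0.294 and 0.0540).

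LEFTY2 (ENSG00000143768, GRCh38 chr1:225936598-225941383, minus strand) moved differently. It was at 57.6 and 65.4 CPM in naive H9, 5.10 and 4.46 CPM in primed H9, then 9.01 and 8.92 CPM in the RUES2-GLR ESCs, 7.01 and 6.46 CPM in early RA-gastruloids, and 0.630 and 0.306 CPM in late RA-gastruloids. Naive H9 was highest, late RA-gastruloids lowest, and no groups overlapped. LEFTY2 fell by 3.71 ± 0.15 from naive to primed H9 (13.1-fold, edgeR adjusted p = 6.88e-20). From primed RUES2-GLR to early RA-gastruloids the difference was -0.41 ± 0.21 and was not called (edgeR adjusted p = 0.0890). It fell by 3.67 ± 0.31 from early to late RA-gastruloids (12.7-fold, edgeR adjusted p = 9.08e-12).

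Mouse Lefty1 (ENSMUSG00000038793, GRCm39 chr1:180762587-180765965) was at 186 and 205 CPM in naive ESCs, 304 and 295 CPM in EpiLCs, 289 and 285 CPM in early gastruloids, and 21.1 and 21.1 CPM in late gastruloids. Lefty2 (ENSMUSG00000066652, GRCm39 chr1:180720673-180726668) was at 729 and 749.6 CPM in naive ESCs, 239 and 235 CPM in EpiLCs, 321 and 333 CPM in early gastruloids, and 8.41 and 9.98 CPM in late gastruloids. Lefty2 was highest in naive ESCs and Lefty1 in EpiLCs, and both were lowest in late gastruloids without overlap. Lefty2 fell by 1.64 ± 0.05 from naive ESCs to EpiLCs (3.12-fold, edgeR adjusted p = 4.54e-35), the only one of the 10 genes called at this step. From early to late gastruloids Lefty1 fell 13.6-fold (log2 -3.76 ± 0.08, edgeR adjusted p = 8.21e-45) and Lefty2 fell 35.8-fold (log2 -5.16 ± 0.08, edgeR adjusted p = 1.01e-49).

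Within a library, the balance of the 2 LEFTY genes turned over between naive and primed cells in both species. In TPM, LEFTY2 was 2.34 and 3.09 times LEFTY1 in the naive H9 libraries, and 0.158 and 0.136 times in primed H9. It was 0.396 and 0.393 times in primed RUES2-GLR and 12.1 and 26.5 times in early RA-gastruloids, the latter resting on 5 and 2 LEFTY1 counts. The late RA-gastruloid ratios of 10.8 and 2.48 rest on 1 LEFTY1 count in each library and are not read further. In mouse, Lefty2 was 2.63 and 2.46 times Lefty1 in naive ESCs, 0.529 and 0.537 times in EpiLCs, 0.747 and 0.787 times in early gastruloids, and 0.268 and 0.318 times in late gastruloids. The ratio was thus above 1 in both naive groups and in early RA-gastruloids, and below 1 in the primed ESCs and in the EpiLCs and gastruloids of mouse. These ratios are descriptions, with no test. The share of bases where reads could be dropped differs between the 2 genes, so a ratio of 1 need not mean equal levels. In mouse, 21.9% of Lefty2 exon bases are also exons of Gm57186 on the opposite strand, against none for Lefty1.

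**Figure D1:**
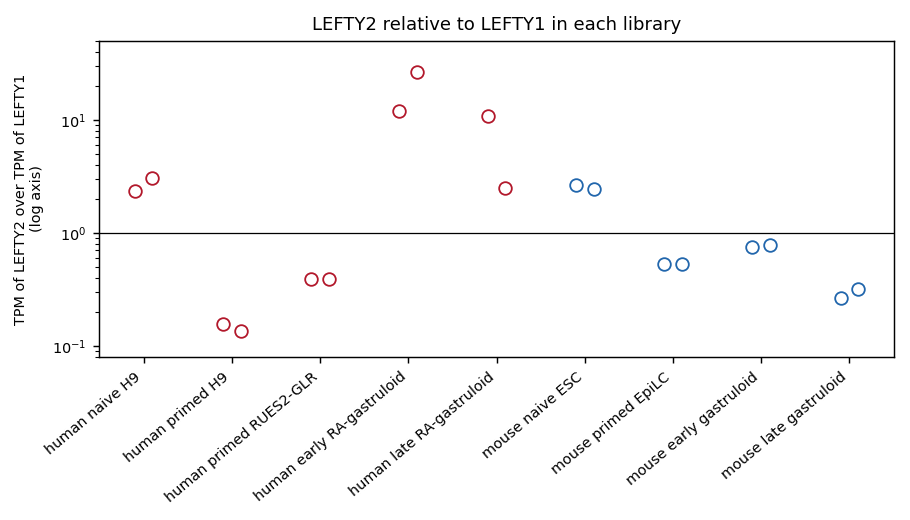
Ratio of LEFTY2 to LEFTY1 TPM in each library (circles, log axis, 2 libraries per group, human in red and mouse in blue), with the line at equal TPM. Both naive groups lie above the line, at 2.34 to 3.09 in human and 2.46 to 2.63 in mouse, and the primed groups below it.

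CER1 is a secreted antagonist that binds Nodal as well as BMP ligands and marks anterior endoderm in the embryo. It fell from early to late gastruloids in human and rose in mouse. Human CER1 (ENSG00000147869, GRCh38 chr9:14719724-14722733, minus strand) had 1 and 0 counts in naive H9, and stood at 2.10 and 1.95 CPM in primed H9, then 2.95 and 3.50 CPM in the RUES2-GLR ESCs, 11.5 and 10.3 CPM in early RA-gastruloids, and 0.194 and 0.204 CPM in late RA-gastruloids. The early RA-gastruloids were highest, and no groups overlapped. Primed H9 was above naive H9 by a ratio of 72.8 with a 95% counting interval of 12.8 to 2900 (edgeR adjusted p = 7.31e-10). CER1 then rose by 1.82 ± 0.27 from primed RUES2-GLR to early RA-gastruloids (3.53-fold, edgeR adjusted p = 7.07e-07) and fell by 5.74 ± 0.37 from early to late (53.3-fold, edgeR adjusted p = 2.51e-14). The late libraries held 4 and 2 CER1 counts.

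Mouse Cer1 (ENSMUSG00000038192, GRCm39 chr4:82799988-82803385) had 0 and 0 counts in naive ESCs, 1 and 0 in EpiLCs, 2 and 3 in early gastruloids, and 36 and 29 in late gastruloids, the last being 4.20 and 4.32 CPM. Only the late gastruloids had more than 5 counts over the group. The early to late rise was 25.0-fold (log2 4.65 ± 0.55, edgeR adjusted p = 3.84e-11). The sum of 3 definitive endoderm markers (SOX17, FOXA2 and CXCR4) was highest in the same groups as CER1, coming to 277 to 282 CPM in early RA-gastruloids against 2.07 to 33.5 CPM in the other human libraries, and to 64.8 to 66.4 CPM in late mouse gastruloids against 1.33 to 4.13 CPM in the others. In early RA-gastruloids most of that sum was CXCR4 (256 CPM), while FOXA2 was at 1.38 CPM against 1.50 CPM in naive H9. Extraembryonic endoderm markers (GATA6, GATA4 and PDGFRA) also summed highest in these groups, to 158 to 162 CPM in early RA-gastruloids, mostly PDGFRA, against at most 66.2 CPM in the other human libraries, and to 530 to 541 CPM in late mouse gastruloids against at most 5.04 CPM in the others. The part of either marker list in the CER1 values was not tested.

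SMAD7, an intracellular inhibitor that blocks receptor signalling of the whole TGF-beta family, was highest in naive H9 and, in CPM, lowest in late RA-gastruloids. In TPM the lowest group was primed RUES2-GLR, at 5.32 and 4.77 against 5.92 and 5.89 in late RA-gastruloids. Human SMAD7 (ENSG00000101665, GRCh38 chr18:48919853-48950965, minus strand) was at 42.8 and 41.2 CPM in naive H9, 19.5 and 23.3 CPM in primed H9, then 9.58 and 8.92 CPM in the RUES2-GLR ESCs, 11.2 and 10.5 CPM in early RA-gastruloids, and 5.91 and 5.71 CPM in late RA-gastruloids. No groups overlapped. The difference between the primed lines was the only one called (log2 -1.20 ± 0.17 in RUES2-GLR, edgeR adjusted p = 2.46e-07, and -2.23 on the TPM scale), while naive to primed H9 (-0.96 ± 0.13) and early to late RA-gastruloids (-0.90 ± 0.18) stayed under the fold threshold. The naive to primed H9 change was called with DESeq2 (-1.08), with its size factors (-1.07), without naive replicate 2 (-1.03) and without primed replicate 2 (-1.09), and on the TPM scale it was -0.46. Mouse Smad7 (ENSMUSG00000025880, GRCm39 chr18:75500600-75529006) was between 70.5 and 86.1 CPM in naive ESCs, EpiLCs and early gastruloids, and at 37.9 and 38.3 CPM in late gastruloids. It fell 2.23-fold from early to late gastruloids (log2 -1.16 ± 0.08, edgeR adjusted p = 1.78e-19).

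**Figure D2:**
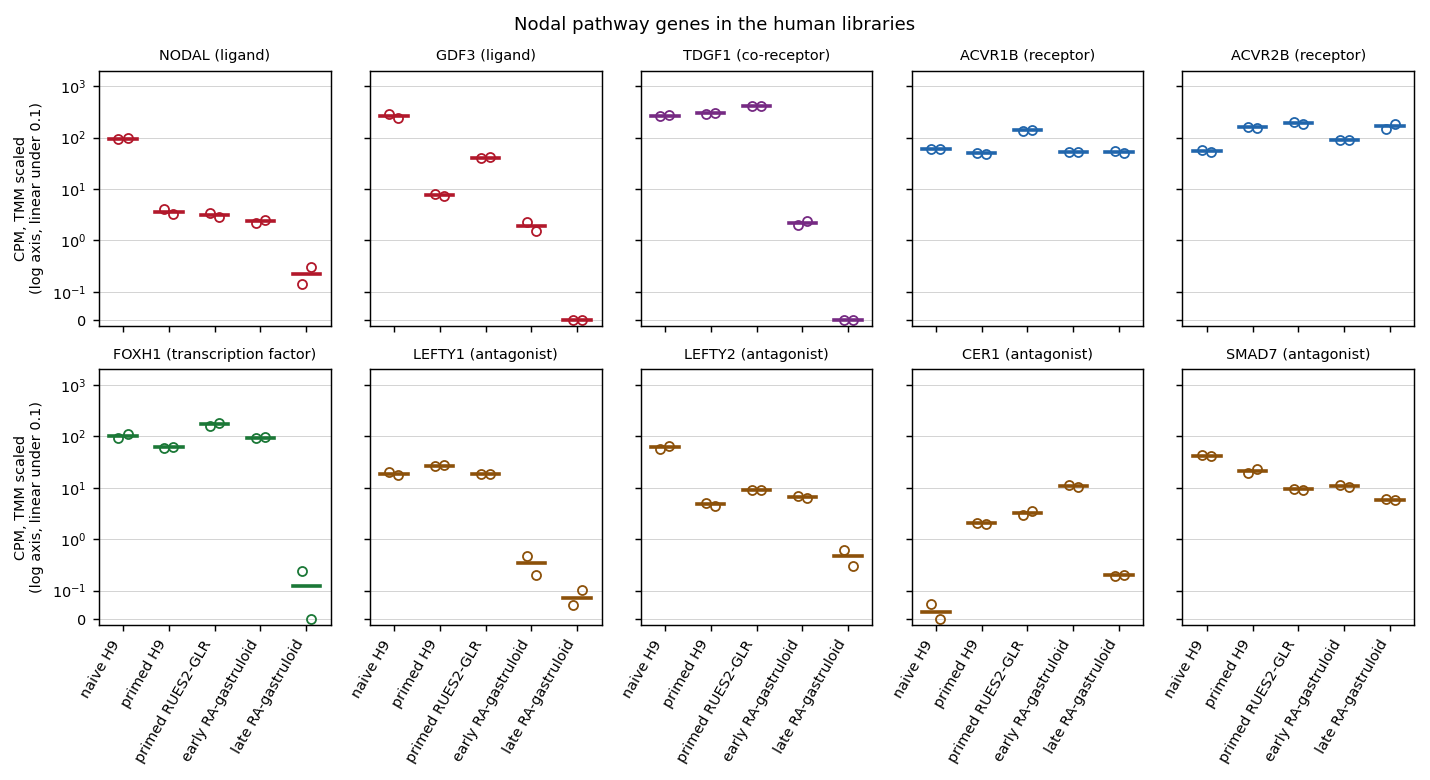
CPM of the 10 genes in the human libraries (open circles, 2 per group, with the mean as a line, on a log axis that is linear under 0.1 CPM). NODAL, GDF3 and LEFTY2 are highest in naive H9, TDGF1 and LEFTY1 drop at the early RA-gastruloids, and FOXH1 lies at 92.1 to 96.1 CPM there and at 0 to 0.242 CPM in the late ones.

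**Figure D3:**
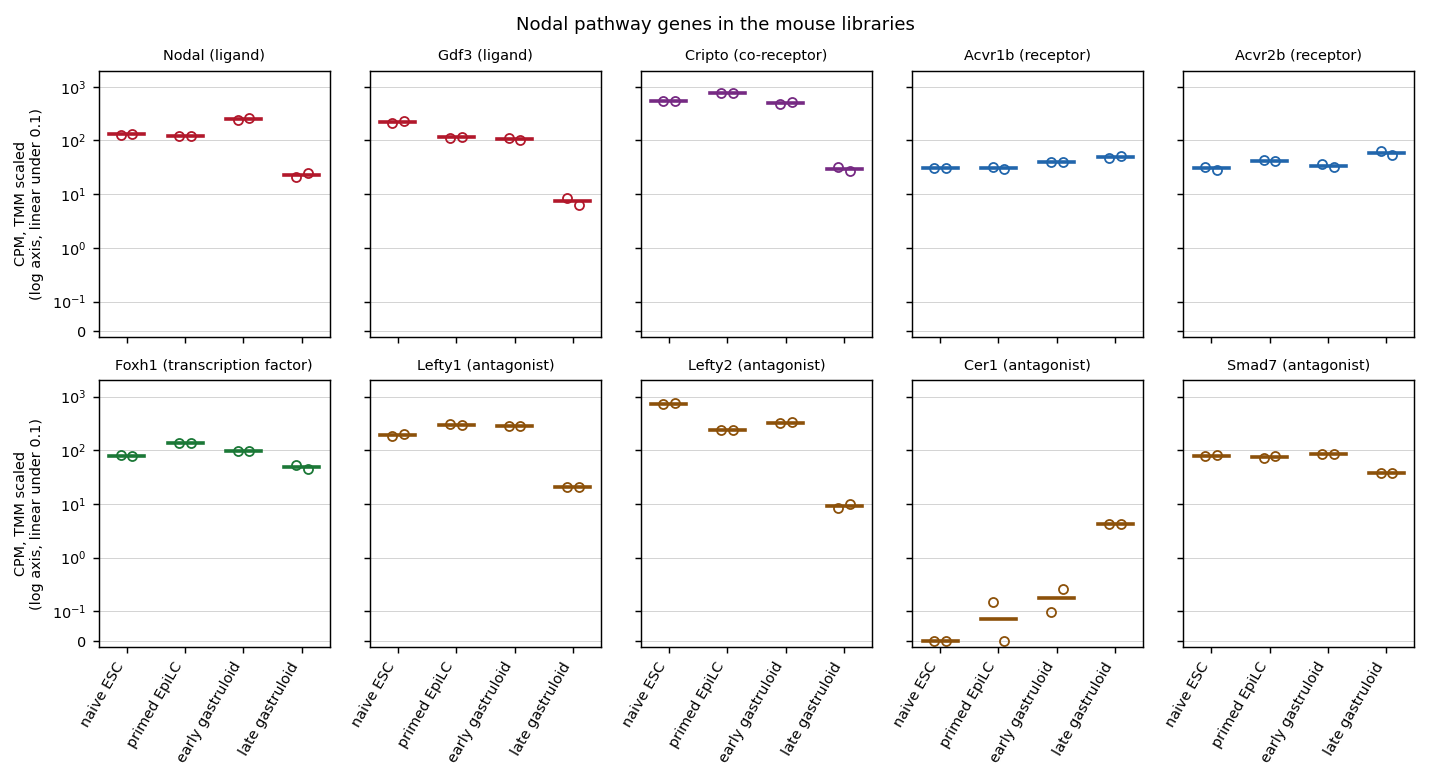
CPM of the 10 genes in the mouse libraries, drawn as for human. In the mouse libraries 7 of the 10 panels drop from the early to the late gastruloids, and the receptors do not. Cer1 lies at 0.264 CPM or less in every library before the late gastruloids.

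Counted over the 10 genes, the comparisons differed in direction. Between naive and primed H9, 2 were higher (ACVR2B, CER1) and 3 lower (NODAL, GDF3, LEFTY2) in primed cells, where 25.5% of all tested genes were called higher and 22.3% lower, 47.8% in all. The share of the genes called, 5 of 10, was close to that background. The naive H9 cells had been grown on feeders. All 6 embryonic fibroblast markers were at 1 CPM or more in that group, with a sum of 665 to 686 CPM. In primed H9, 3 of 6 were, with a sum of 267 to 276 CPM. The same sum was 562 to 628 CPM in primed RUES2-GLR, grown without feeders, and 992 to 1059 CPM in early RA-gastruloids. In primed RUES2-GLR most of the sum was COL1A1 and COL1A2, with means of 389 and 204 CPM. COL3A1 was at 181 and 172 CPM in naive H9, 0.0699 and 0.0477 CPM in primed H9, and 0.246 and 0.319 CPM in primed RUES2-GLR. COL1A2 was slightly lower in naive than in primed H9, with means of 121 and 133 CPM. LUM and DCN, at 0 in primed H9, were at 1.57 and 2.12 CPM and at 8.05 and 6.20 CPM in the naive H9 libraries, and the part of feeder RNA in these differences was not tested. Between primed H9 and primed RUES2-GLR, 3 were higher (GDF3, ACVR1B, FOXH1) and 1 lower (SMAD7) in RUES2-GLR, against 17.1% of all genes higher and 12.2% lower, 29.3% in all. LEFTY2, at 0.94 just under the fold threshold there, was called higher with DESeq2 (1.07), with its size factors (1.08), with only the compared groups fitted (1.13) and without RUES2-GLR replicate 1 or replicate 2 (1.06 and 1.04), while on the TPM scale it was -0.11. From primed RUES2-GLR to early RA-gastruloids, CER1 was higher and 5 genes were lower (GDF3, TDGF1, ACVR1B, ACVR2B, LEFTY1), with 12.0% of all genes higher and 17.6% lower, 29.6% in all. The median log2 change of the 10 genes there was -0.98, and of all genes tested 0.08.

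At the step from early to late RA-gastruloids 7 genes were lower and none higher, where 11.8% of all tested genes were higher and 13.2% lower, 24.9% in all. The 7 were NODAL, GDF3, TDGF1, FOXH1, LEFTY1, LEFTY2 and CER1, and the other 3 were both receptors and SMAD7. The median log2 change of the 10 genes was -3.60 against 0 for all genes. From primed RUES2-GLR straight to late RA-gastruloids, a comparison that shares both groups with the preceding ones, 8 genes were lower (17.3% of all genes higher and 21.0% lower, 38.3% in all), TDGF1 at least 4246-fold and GDF3 at least 406-fold. LEFTY1 was lower by a ratio of 287 with a 95% counting interval of 78.6 to 2377.

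In mouse the calls were concentrated at the last step. From naive ESCs to EpiLCs 1 of 10 was called (Lefty2, lower), where 17.7% of all genes were higher and 12.1% lower, 29.8% in all. From EpiLCs to early gastruloids 1 of 10 was called (Nodal, higher), against 11.7% of all genes higher and 9.24% lower, 20.9% in all. From naive ESCs to early gastruloids 2 of 10 were lower (Gdf3 and Lefty2), against 16.2% of all genes higher and 6.81% lower, 23.0% in all. From early to late gastruloids 7 of 10 were lower and 1 (Cer1) higher, where 20.1% of all genes were higher and 19.1% lower, 39.2% in all. The median log2 change of the 10 genes at that step was -2.31, and of all genes -0.03. The 3 mouse comparisons that involve early gastruloids share those libraries.

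Whether a step differed between species was tested as a difference of log2 changes, human minus mouse, in 1 fit of 14008 genes matched by symbol. From naive to primed (H9 against E14Tg2a), 4 of the 10 genes differed, each with the lower change in human, where 42.1% of all genes differed, 19.0% with a higher and 23.2% with a lower change in human. NODAL differed by -4.77 ± 0.16 (edgeR adjusted p = 3.09e-24), GDF3 by -4.29 ± 0.16, LEFTY2 by -2.18 ± 0.14 and FOXH1 by -1.63 ± 0.15. LEFTY1 did not pass the test (difference -0.21 ± 0.14, edgeR adjusted p = 0.189).

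From primed to early gastruloids, 5 of 10 differed, all with the lower change in human, against 32.6% of all genes, 12.9% with a higher and 19.7% with a lower change in human. TDGF1 differed by -7.04 ± 0.16 (edgeR adjusted p = 1.54e-27), LEFTY1 by -5.79 ± 0.31, GDF3 by -4.38 ± 0.23, ACVR1B by -1.86 ± 0.14 and NODAL by -1.66 ± 0.30. On the TPM scale NODAL changed by 0.44 in human and 1.04 in mouse, and ACVR1B by -0.53 and 0.34. For both genes the species were then less than the fold threshold apart, and differences in TPM were not tested. The human step starts from the parent RUES2-GLR ESCs and the mouse step from EpiLCs, which were not the parents of the gastruloids. Human CER1 and mouse Cer1 changes could not be compared at these first steps, since mouse Cer1 had at most 5 counts per group.

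From early to late, 5 of 10 differed, 1 with a higher and 4 with a lower change in human, against 35.4% of all genes, 16.7% higher and 18.7% lower. CER1 differed by -10.26 ± 0.64, falling in human and rising in mouse (edgeR adjusted p = 5.77e-16). FOXH1 differed by -7.94 ± 0.31 (edgeR adjusted p = 4.74e-22), and LEFTY2 by 1.63 ± 0.42, falling further in mouse (edgeR adjusted p = 0.00114). The CER1 and FOXH1 sizes rest on few counts and are less certain than their SE. GDF3 and TDGF1 also passed (edgeR adjusted p = 0.0227 and 0.0146), with the human late libraries at 0 counts, so that their fitted differences have no interpretable size. The LEFTY2, GDF3 and TDGF1 calls depended on late RA-gastruloid replicate 1: without it 2 of the 10 genes differed, and LEFTY2 differed by 0.93. The GDF3 call was also lost without late RA-gastruloid replicate 2 (edgeR adjusted p = 0.0658). For NODAL, which fell in both species, the difference was 0.07 ± 0.59 and was not called.

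**Figure D4:**
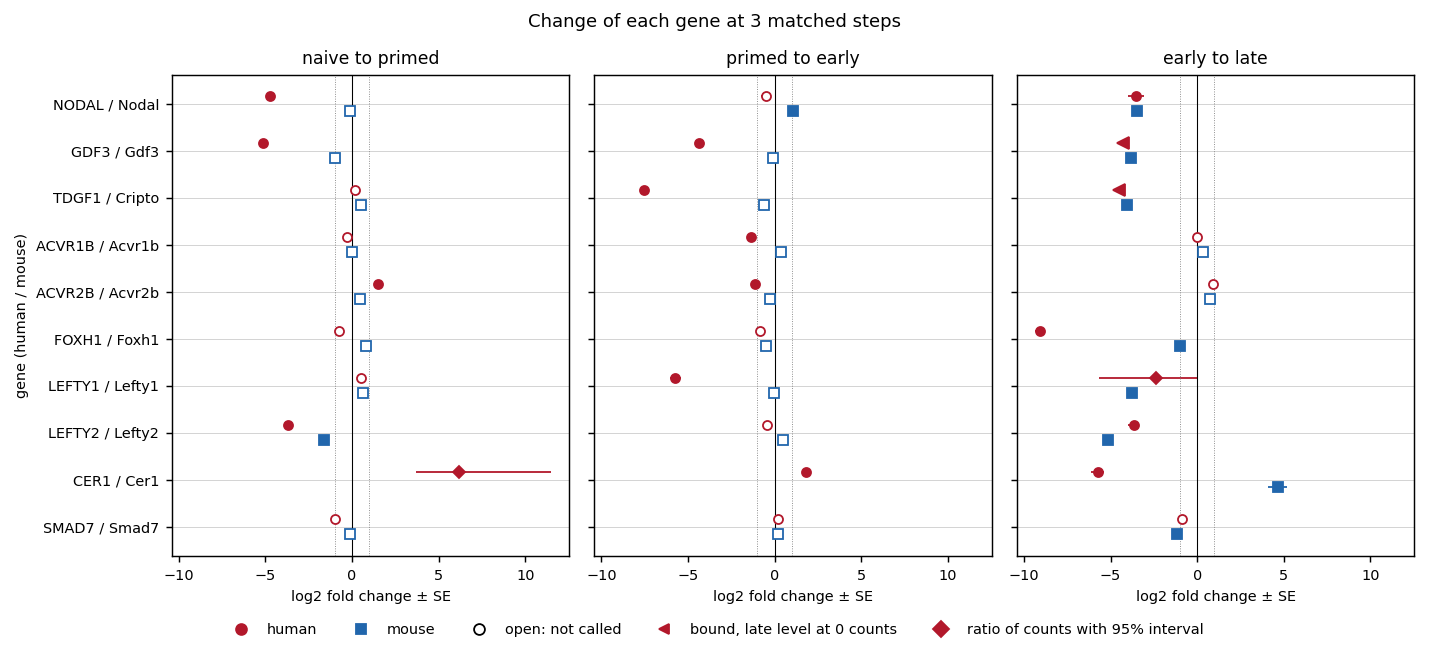
Log2 fold changes of the 10 genes at 3 steps, human in red and mouse in blue, bars showing the SE (filled symbols called, open symbols not called, dotted lines at 1 and -1). Triangles are bounds for GDF3 and TDGF1 with 0 counts in late RA-gastruloids, diamonds are count ratios with 95% intervals, and mouse Cer1 is left out where a group had 1 count or fewer. Human changes go beyond 4 in size at each step, and mouse changes only at the last.

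Summed over the 10 genes and divided by length, the human libraries ran from 1534 and 1430 TPM in naive H9 to 84.8 and 92.6 TPM in late RA-gastruloids. The leading gene changed along the way: GDF3 in naive H9 (734 and 601 TPM), TDGF1 in primed H9 (504 and 528 TPM) and primed RUES2-GLR (369 and 351 TPM), FOXH1 in early RA-gastruloids (178 and 186 TPM), and the receptors in late RA-gastruloids. In mouse the sums were 2598 to 2807 TPM in naive ESCs, EpiLCs and early gastruloids and 426 and 389 TPM in late gastruloids. Lefty2 led in naive ESCs (932 and 928 TPM), Cripto in EpiLCs (1040.2 and 1033 TPM) and early gastruloids (644 and 679 TPM), and Foxh1 in late gastruloids (139.9 and 116 TPM). GDF3 exceeded NODAL by 5.21 and 4.30 times in naive H9 and by 19.3 and 24.9 times in primed RUES2-GLR. In mouse Gdf3 was 1.45 and 1.50 times Nodal in naive ESCs and 0.392 and 0.330 times in early gastruloids. Reads can be dropped over the 33.5% of human NODAL exon bases shared with another gene, so its TPM may be too low. Human GDF3, mouse Nodal and mouse Gdf3 share none.

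Of 29 other genes of the Nodal and activin pathway, 28 were tested in human and 26 in mouse. Among the ligands and their convertases, human INHBA and INHBB, which encode activin subunits, stayed under 2 CPM in every group mean, although INHBA was called in all 5 human comparisons and INHBB in 4. FURIN, which cleaves the Nodal precursor, fell by 1.66 from naive to primed H9 (242 to 76.5 CPM). Mouse Pcsk6, encoding another convertase of Nodal, fell from 230.0 CPM in naive ESCs to 17.6 CPM in EpiLCs (log2 -3.67), and between early gastruloids (73.7 CPM) and late ones (11.8 CPM) by 2.62.

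Among the other antagonists, FST, which encodes the activin-binding protein follistatin, was higher in primed RUES2-GLR (241 CPM) than in primed H9 (4.62 CPM, log2 5.65), and fell by 1.82 into early RA-gastruloids. Mouse Fst rose from 14.8 CPM in EpiLCs to 73.7 CPM in early gastruloids (log2 2.32) and fell to 9.04 CPM in late gastruloids (log2 -3.04). DAND5, a Cerberus family member like CER1, was called in 4 human comparisons, with means of at most 1.82 CPM. The co-receptor gene CFC1, of the same family as TDGF1 and with a near copy in the human genome (CFC1B) that could share its reads, was at 3.16 CPM in early RA-gastruloids with 0 in late ones, and mouse Cfc1 rose to 12.6 CPM in late gastruloids from 0.0494 CPM in early ones. The 2 co-receptor genes of mouse therefore moved in opposite directions at that step, Cripto falling and Cfc1 rising.

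Among target transcription factors, MIXL1, a homeobox gene of the primitive streak, rose from 0.282 CPM in primed RUES2-GLR to 49.6 CPM in early RA-gastruloids (log2 7.53) and fell to 9.38 CPM in late ones. GSC rose from 0.319 to 1.17 CPM at the same step, at which TDGF1, LEFTY1 and GDF3 fell. In mouse, Mixl1 rose from 0.970 to 10.6 CPM and Gsc from 0.206 to 2.39 CPM between EpiLCs and early gastruloids, and Lhx1 and Foxa2 rose from early to late gastruloids to 37.5 and 25.6 CPM. Of the 28 human genes tested, 9 were higher and 6 lower from primed RUES2-GLR to early RA-gastruloids, where 12.0% and 17.6% of all genes were, and 2 higher and 10 lower from early to late RA-gastruloids, against 11.8% and 13.2%. Of the 26 tested in mouse, 7 were higher and 2 lower from EpiLCs to early gastruloids, against 11.7% and 9.24% of all genes, and 7 higher and 4 lower from early to late, against 20.1% and 19.1%. Of the SMAD corepressor genes, human SKI rose from 59.7 to 134 CPM between naive and primed H9 and from 88.2 to 190.0 CPM between early and late RA-gastruloids, and mouse Skil rose from 42.9 CPM in naive ESCs to 259 CPM in EpiLCs. Of the signal transducers below the receptors, SMAD2 and SMAD4 were called in no comparison in either species, while SMAD3 rose from early to late gastruloids in both, from 23.1 to 86.1 CPM in human (log2 1.89) and from 35.9 to 160.5 CPM in mouse (log2 2.16). Of the other receptor genes, human ACVR2A rose to 39.6 CPM in primed RUES2-GLR from 12.1 CPM in primed H9 and was lower again in early RA-gastruloids (17.8 CPM), while mouse Acvr2a rose from 15.5 to 35.3 CPM between early and late gastruloids. ACVR1C, at most 2.47 CPM in a human group mean, was called in 2 human comparisons.

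**Figure D5:**
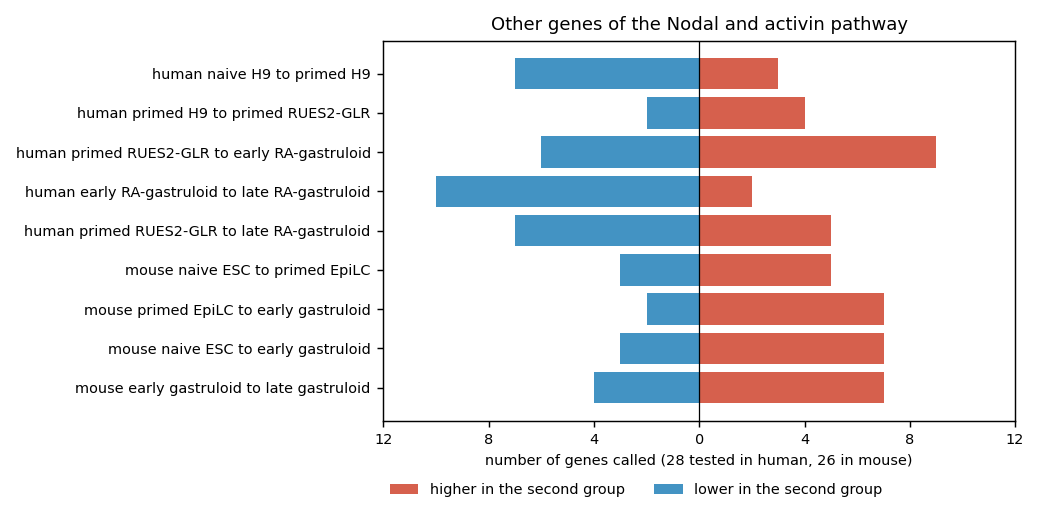
Number of the other pathway genes called higher (red, to the right) or lower (blue, to the left) in the second group of each comparison. The early to late step has 2 higher and 10 lower in human, and 7 higher and 4 lower in mouse.

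The genes most like NODAL were sought among protein-coding genes reaching 5 CPM in a group mean, by the root mean square difference of centred log2 CPM. In human they were GPNMB (0.370), FOXI3 (0.447) and SERPINB9 (0.546) of 12571 candidates over 10 samples, all 3 highest in naive H9. In mouse they were Nefl (0.138), Mt1 (0.162) and Pnma5 (0.217) of 11671 candidates over 8 samples. Of the other 9 pathway genes described, LEFTY2 was nearest to NODAL in human (0.856, with 30 candidates nearer) and Lefty1 in mouse (0.538, with 178 candidates nearer). These are distances over samples that fall in 5 and 4 groups, with no test.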

How the data were processed

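Per the labels and the study's methods, polyadenylated RNA was prepared with NEBNext Ultra II kits and sequenced on an Illumina instrument. After trimming with Trimmomatic (0.39), the authors mapped human reads to GRCh38 and mouse reads to GRCm39 in STAR. Reads per gene were taken by featureCounts at default settings, which ignore strand and drop reads that map to several places or overlap several genes. The deposited values are these raw counts per gene and sample, with gene lengths, and both replicates of a stage come from 1 batch. P-values therefore measure the spread between 2 replicates, which may be partly technical, and the read layout of each sample is not given in the sources used here.

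Genes were matched by identifier to GENCODE v44 (44876 of 44910) and vM39 (29486 of 29720), whose coordinates are given. Counts were fitted per species in edgeR (4.0.16, R 4.3.3) with filterByExpr, TMM scaling, 1 coefficient per group and the quasi-likelihood test, with Benjamini-Hochberg adjustment over all tested genes. Each SE is the size of the unshrunk log2 coefficient over the square root of its F statistic. For large changes with few counts in a group it can understate the counting error. This concerns NODAL, FOXH1 and CER1 in late RA-gastruloids, LEFTY1 in both RA-gastruloid groups, and Cer1 in early mouse gastruloids. Differences between species came from 1 edgeR fit of all 18 samples. TPM were computed from the counts and the deposited lengths. A group at 0 counts was set to a floor of 3 counts over the group, and ratios with 1 to 3 counts in a group have an exact conditional 95% interval. Genes named are the 10 members and, of the other pathway genes, those called in at least 3 comparisons or sharing a member's role. Alternatives were DESeq2 (1.42.0), its size factors, no filter, the adjusted p alone, only the compared groups, a replicate block, leaving out each replicate, and TPM, the last for single genes chosen after the data were seen. The fit was checked on simulated counts. The members and lists were chosen with earlier results of these data known. Of the other pathway genes, 1 that meets the rule for named genes is not reported here.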

Additional observations from a re-analysis of the deposited data

Results flagged for a closer look

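The change of a gene at a step differed between human and mouse, by the edgeR test of the difference itself, in 14 of 30 cases, 4, 5 and 5 of 10 at the successive steps, where 42.1%, 32.6% and 35.4% of all genes differed. The values are human minus mouse differences of log2 changes, and species, line and protocol cannot be told apart in them. From naive to primed, the differences were -4.77 for NODAL, -4.29 for GDF3, -2.18 for LEFTY2 and -1.63 for FOXH1. Between the primed state and early gastruloids they were -7.04 for TDGF1, -5.79 for LEFTY1, -4.38 for GDF3, -1.86 for ACVR1B and -1.66 for NODAL. On the TPM scale the human and mouse changes of ACVR1B and of NODAL were less than the fold threshold apart. Between early and late gastruloids, CER1 differed by -10.26, FOXH1 by -7.94 and LEFTY2 by 1.63. At that last step GDF3 and TDGF1 are given by their edgeR adjusted p alone, 0.0227 and 0.0146, because both late RA-gastruloid libraries had 0 counts. No outlying library could be sought, since every group had 2 samples.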

How the results depend on the processing

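Values here are log2 changes or counts of the 10 genes, and where no cause is named the cause was not tested. Each change of sign was in a difference that was not called. Without the low-count filter the early to late ACVR1B change in RA-gastruloids was 0.0496. The naive ESC to EpiLC change of Acvr1b was 0.0170 with DESeq2, 0.0121 with its size factors and 0.00282 with only the compared groups fitted. NODAL from primed H9 to RUES2-GLR was 0.0378, 0.0560 and 0.105 under the same alternatives. The species difference at early to late was -0.0848 for NODAL with DESeq2 and -0.0300 with its size factors, and that of CER1 at primed to early was -0.0385 with DESeq2. Dropping the fold threshold raised the count of called genes to 9 for naive to primed H9, 8 between the primed lines, 6 from mouse naive ESCs to EpiLCs, 7 from EpiLCs to early gastruloids, 7 from naive ESCs to early gastruloids, and 8 for the species difference at both naive to primed and primed to early. On the TPM scale 2 of the 10 genes in human, against 10 of 10 in mouse, kept the same order of groups, all 38 called changes compared kept their sign, and 12 of 46 not called took the other one. Some called changes were under the fold threshold in TPM. Among them were ACVR1B (0.45) and FOXH1 (0.46) between the primed lines. From primed RUES2-GLR to early RA-gastruloids, ACVR1B (-0.53) and ACVR2B (-0.25) were too. Leaving out 1 replicate at a time gave -0.0757 to 0.0742 for ACVR1B from early to late, -0.0307 to 0.0490 for Acvr1b from naive ESCs to EpiLCs, and -0.318 to 0.0754 for NODAL between the primed lines. The species difference then ran from -2.47 to 1.58 for CER1 and -0.210 to 0.00237 for SMAD7 at primed to early, and from -0.341 to 0.747 for NODAL at early to late. The number of genes differing between species at early to late ran from 2, without late RA-gastruloid replicate 1, to 5, and the number called from mouse naive ESCs to EpiLCs from 1 to 2, with 2 without EpiLC replicate 2 or naive replicate 1. The replicate numbers did not pair the samples (correlations of deviations from -0.112 to 0.0684), and a replicate block changed 1 call, bringing the species difference of LEFTY2 at primed to early to -1.002, past the threshold. With 2 libraries per group, genes with few counts (NODAL, FOXH1, LEFTY1, CER1, GDF3 and TDGF1 in late RA-gastruloids) are limited by depth.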
